A study of Mus musculus with 12 samples.

Results

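The miR-17-92 and miR-106b-25 clusters were described by 9 mature miRNAs, 6 from miR-17-92 (mmu-miR-17-5p, mmu-miR-18a-5p, mmu-miR-19a-3p, mmu-miR-20a-5p, mmu-miR-19b-3p and mmu-miR-92a-3p) and 3 from miR-106b-25 (mmu-miR-106b-5p, mmu-miR-93-5p and mmu-miR-25-3p). They were picked by name from the 1422 mouse miRNAs (prefix mmu-, left out from here on) listed in the small RNA libraries, of which 1374 were mature miRNAs. All 9 were detected in every library, and all 9 passed the filter of 5 or more counts in 3 or more of the libraries, which left 780 miRNAs to test. The list was drawn up with earlier results of these data known. Their levels and fold changes are therefore given as a description of these libraries and support no claim about the choice.

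The small RNAs came from the medial prefrontal cortex (PFC) of adult male C57BL/6 mice, which all went through conditioned place preference (CPP), a test of drug reward in which a chamber is paired with an injection. The 4 groups were saline+saline (SS), cocaine+saline (CS), L-methionine+saline (MS) and L-methionine+cocaine (MC). L-methionine (MET), a methyl donor, was injected subcutaneously at 1 g/kg per injection, 2 injections a day on 10 days, and cocaine intraperitoneally at 20 mg/kg. This methionine dose is that of the labels and the study's methods, and a legend of the study gives a lower one. The tissue was taken 2 h after the test, and each group had 3 libraries, each from RNA pooled from 2 animals. The values thus describe pools, and the spread between the animals of a pool was not measured. Libraries are named here by group and by the number in their label.

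The members of these clusters are cut in groups from 1 primary transcript each and act through the seed, the bases near the 5′ end that pair with target mRNAs. The miR-17-92 cluster is known as a driver of proliferation and survival, also in neural progenitors, and miR-106b-25 is its paralog inside the gene of the replication helicase subunit Mcm7. In the genome build GRCm38.p6 the 6 hairpins of miR-17-92 lay within 836 bases on the plus strand, chr14:115043671-115044506, in an exon of the long noncoding RNA Mir17hg (chr14:115042879-115046727). The 3 hairpins of miR-106b-25 lay within 498 bases on the minus strand, chr5:138165321-138165818, inside Mcm7 (chr5:138164583-138172422). The miR-106b hairpin (chr5:138165737-138165818) was intronic in both transcripts that spanned it. The hairpins of miR-93 (chr5:138165523-138165610) and miR-25 (chr5:138165321-138165404) were intronic in 2 of 3 spanning transcripts and exonic in 1.

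The 9 mature sequences are shown because they decide which members share targets and which can be mistaken for each other in counting. They are the RefSeq sequences of GRCm38.p6, written 5′ to 3′, and the capitals mark the seed, bases 2 to 8.
miR-17-5p: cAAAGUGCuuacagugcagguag
miR-20a-5p: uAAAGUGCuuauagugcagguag
miR-93-5p: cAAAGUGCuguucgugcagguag
miR-106b-5p: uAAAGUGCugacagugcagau
miR-18a-5p: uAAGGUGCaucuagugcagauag
miR-19a-3p: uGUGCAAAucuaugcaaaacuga
miR-19b-3p: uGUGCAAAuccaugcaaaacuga
miR-92a-3p: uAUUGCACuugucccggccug
miR-25-3p: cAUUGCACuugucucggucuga

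The members thus fell into 4 seed families, and those of the miR-17 and miR-92 seeds each drew on both clusters. Counting from 1 at the 5′ end of the first-named miRNA, miR-19a-3p and miR-19b-3p differed by 1 base, U11C. The pair miR-17-5p and miR-20a-5p differed at C1U and C12U. The genome held a pair of copies of the hairpins that give miR-19b-3p and miR-92a-3p, 1 in this cluster and 1 in the paralogous miR-106a-363 cluster on chromosome X (chrX:52741693-52742567). Counts of these 2 miRNAs cannot be assigned to either copy. The miRNAs that only the X-linked cluster gives had low counts. There were 0 to 2 per library for miR-106a-5p and 0 to 1 for miR-18b-5p, while miR-20b-5p had 4 to 23 and miR-363-3p, the X-linked member with the miR-92 seed, 1 to 34, close to the 1 to 24 of the member miR-19a-3p. miR-106a-5p differs from miR-17-5p at U10A alone, so how reads of such pairs were split in the authors' counting is uncertain.

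Outside the clusters, 8 other mouse miRNAs in RefSeq carried a member's seed, and 6 of them were listed in the files. The sequences of miR-92b-3p and miR-32-5p, both of the miR-92 seed, were as follows, with the seed in capitals.
miR-92b-3p: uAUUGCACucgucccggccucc
miR-32-5p: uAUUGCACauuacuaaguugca
For the miR-17 seed, members supplied a median of 99.5% of all counts that carried it, and for the miR-19 seed they supplied all. For the miR-92 seed, members supplied a median of 48.1%, since miR-92b-3p was as abundant as miR-92a-3p, with 318 to 1355 CPM, the count per 1000000 counts of a library. The ratio of miR-92a-3p to miR-92b-3p ranged from 0.627 to 1.71 across the libraries. Summed per library, the miR-92 seed had a median of 1571 CPM and the miR-17 seed a median of 290.7 CPM.

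The depth, in units of 1000000 counts, was 7.77 to 11.1 per library. Of these counts 56.1% to 67.9% were miRNAs, and 3 counts in a library corresponded to 0.271 to 0.386 CPM. No library pair agreed within sampling noise (66 pairs over 526 miRNAs, chi-square of at least 154.7 per degree of freedom). The neuron list (6 of 6 markers detected in every library, led by miR-124-3p) had a sum of 104800 to 272900 CPM, and no other brain region was measured beside it. The libraries were split into 3 sets, a number given to the clustering, by 121 precursor families outside the members' own. The sets were A (SS 12, CS 8, CS 9), B (SS 13, SS 14, MS 3, MS 4, MS 23, MC 20) and C (CS 10, MC 16, MC 17). The median correlation was 0.632 for 21 pairs within a set and -0.59 for 45 pairs across sets. These values come from the same reads that made the sets, so the contrast only describes the clustering. The labels name no batch, and no MS library was outside set B and no MC library was in set A. The library MC 16 stood apart further, as described with its values below.

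Levels of the 9 members are given as CPM of the library total, without further scaling. A mature miRNA is read from end to end in 1 read and these differ by at most 2 bases in length, so CPM can be set side by side, although the efficiency with which each sequence entered a library was not measured. miR-92a-3p was the most abundant, with a mean of 730.1 ± 296.2 CPM (SD, n = 12), which was 0.114% of all miRNA counts. It was followed by miR-93-5p with 251.2 ± 66.9 CPM and miR-19b-3p with 97.9 ± 36.9 CPM (both SD, n = 12). These 3 members ranked 79, 125 and 178 by mean level among the 780 miRNAs. In the middle stood miR-25-3p with 56.4 ± 15.8 CPM and miR-20a-5p with 23.7 ± 7.54 CPM (both SD, n = 12). The lowest were miR-106b-5p with 15.6 ± 7.99 CPM, miR-17-5p with 15.1 ± 4.97 CPM, miR-18a-5p with 4.17 ± 1.84 CPM and miR-19a-3p with 0.775 ± 0.620 CPM (all SD, n = 12).

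**Figure D1:**
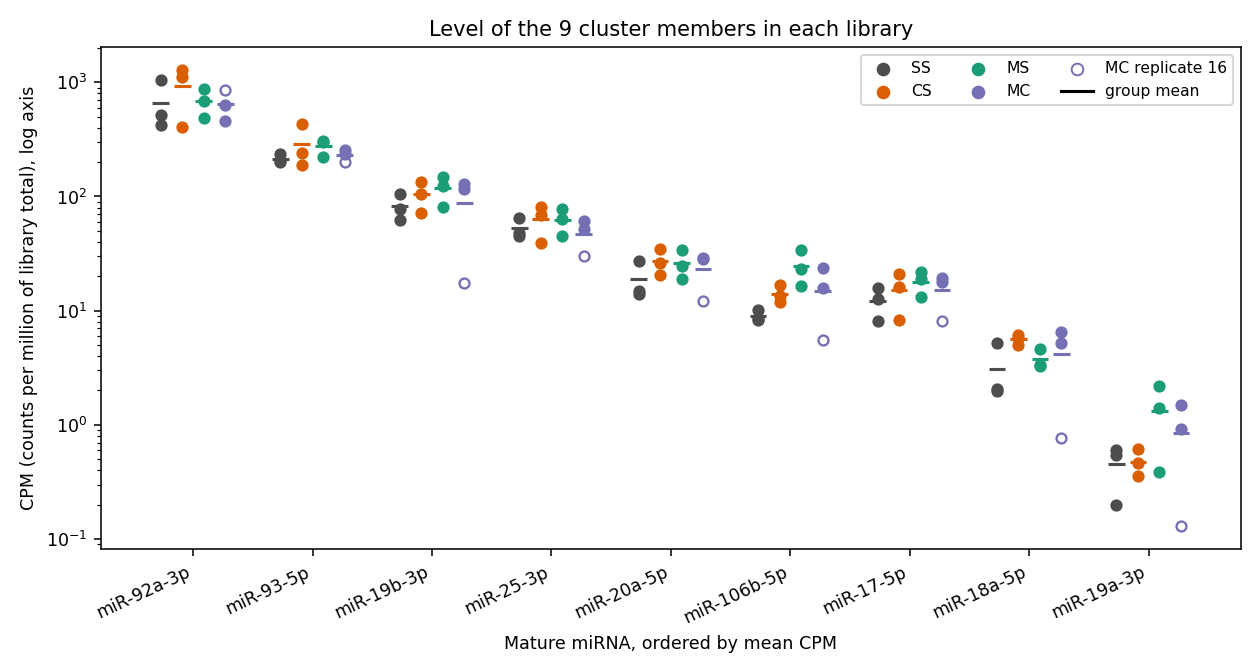
CPM (log axis) of each member in each of the 12 libraries, coloured by group, with group means as short lines and MC replicate 16 as open circles. The members span from a mean of 0.775 CPM for miR-19a-3p to 730.1 CPM for miR-92a-3p, and the open circle lies lowest for 6 of the 9 members and among the upper values for miR-92a-3p.

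The order of neighbours held in all 12 libraries except at 3 places. miR-19b-3p was above miR-25-3p in 11 of 12, and miR-20a-5p above miR-106b-5p in 11 of 12. miR-106b-5p and miR-17-5p did not differ beyond their spread, since each was the higher in 6 of 12 libraries. Members of 1 cluster were far from equal. miR-19b-3p exceeded miR-19a-3p, its neighbour with the same seed, by 67.1- to 394-fold (median 138), on 1 to 24 counts of miR-19a-3p per library. How reads of these 2, which differ by 1 base, were split is uncertain. miR-19b-3p and miR-92a-3p can also come from the X-linked copies of their hairpins, so their counts may not be those of miR-17-92 alone. In miR-106b-25, miR-93-5p exceeded miR-106b-5p by 9.01- to 35.9-fold. miR-92a-3p alone made up 72.6% to 95.7% of the summed CPM of miR-17-92, and the 9 members together made up 0.116% to 0.318% of all miRNA counts.

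The members also varied to different degrees between libraries of 1 group. The SD of log2 CPM within groups was smallest for miR-93-5p (0.347) and miR-25-3p (0.454), both of miR-106b-25. It was largest for miR-19a-3p (1.09), which had the fewest counts, and for miR-18a-5p (0.918) and miR-19b-3p (0.893). The last of these had 135 to 1611 counts per library, with 17.4 CPM in MC 16 against 62.7 to 147 CPM in the other 11 libraries.

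The first comparison asked what cocaine did to the members without methionine (CS against SS). None of the 9 was called by edgeR's quasi-likelihood test at an adjusted p of at most 0.05, against a background of 0% of the 780 miRNAs. At an unadjusted p under 0.05 the test gave 22 miRNAs, 2.82%, and none was a member, and DESeq2 called 0 of 773. The fitted log2 fold changes, which use TMM factors, were above 0 for 7 members and below 0 for miR-19a-3p and miR-25-3p, and their median was 0.10 beside 0.03 over all miRNAs. Both of the values below 0 turned above 0 without TMM factors, and that of miR-25-3p also with factors from all small RNAs. With the library set as a covariate 4 members were above 0 and 5 below. The largest was that of miR-18a-5p, whose levels were 5.23, 1.99 and 2.08 CPM in SS 12, 13 and 14 and 6.14, 5.74 and 5.01 CPM in CS 8, 9 and 10. The CS libraries were close to each other, and SS 12 lay within their range. Its log2 fold change was 0.61 (SE 0.52, adjusted p = 0.994 by edgeR). The 95% intervals of the 9 members lay between -1.82 and 1.75, so a doubling was inside the interval for some of them.

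The second comparison asked what methionine did without cocaine (MS against SS). Here the member that stood out was miR-106b-5p, a miR-17-seed miRNA. It was counted 69, 83 and 112 times in SS 12, 13 and 14, which is 8.39, 8.27 and 10.1 CPM. In MS 3, 4 and 23 it was counted 253, 337 and 172 times, which is 23.1, 33.7 and 16.6 CPM. Every MS library was above every SS library, and the means were 24.4 ± 8.64 CPM in MS and 8.92 ± 1.03 CPM in SS (both SD, n = 3). Non-overlap in this direction was common, at 18.7% of the 780 miRNAs on CPM and 12.8% with TMM factors, and miR-106b-5p was the only 1 of the 9 members to show it.

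The fitted log2 fold change of miR-106b-5p was 1.18 (SE 0.33, 95% interval 0.45 to 1.92), or 2.27-fold. Its adjusted p was 0.315 by edgeR, so it was not called, as was true of all 780 miRNAs (0%). By unadjusted p (0.00441, edgeR) it ranked 10 among the 780, where 75 miRNAs or 9.62% had an unadjusted p under 0.05. DESeq2 gave 1.16 with an adjusted p of 0.0423 and called 13 of 773 miRNAs, 1.68%, of which miR-106b-5p was the only member. Without MC 16, a library outside the comparison that enters the shared estimate of spread, edgeR gave 1.27 with an adjusted p of 0.0462 and called 7 miRNAs. Over 21 alternatives the log2 fold change stayed between 0.99 and 1.45, the adjusted p ran from 0.0423 to 0.661, and the call was made in 2. Within library set B alone, an alternative chosen after the data were seen, it was 1.15 with an adjusted p of 0.129 by edgeR.

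**Figure D2:**
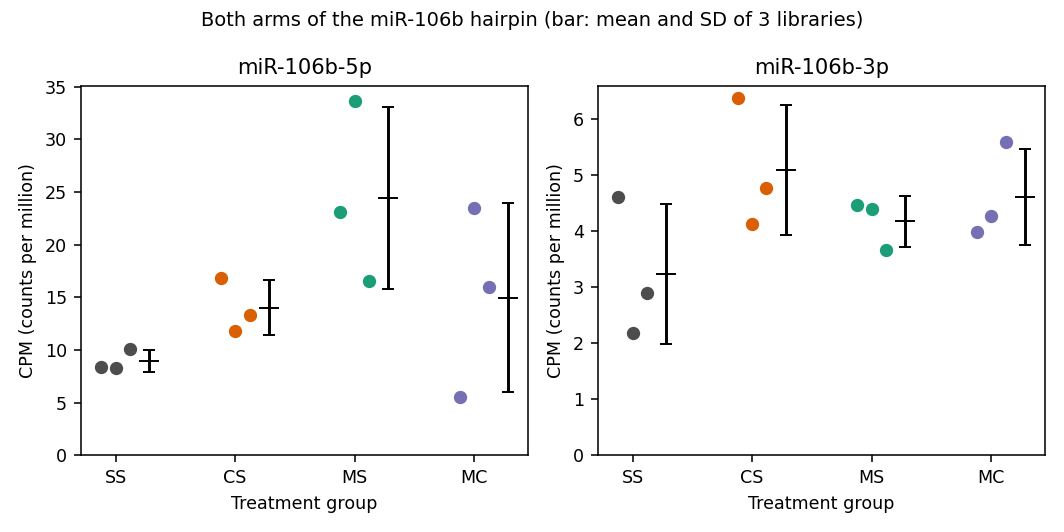
CPM of both arms of the miR-106b hairpin in each library by group, with the mean and SD of 3 libraries as bars (the y axes differ). For miR-106b-5p the SS libraries sit between 8.27 and 10.1 CPM and the MS libraries between 16.6 and 33.7 CPM, while for miR-106b-3p the groups overlap.

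The other arm of the same hairpin, miR-106b-3p, played no part in the choice of members. It was 4.62, 2.19 and 2.89 CPM in SS 12, 13 and 14, and 4.467, 4.395 and 3.657 CPM in MS 3, 4 and 23, so the groups overlapped. Its log2 fold change was 0.14 (SE 0.32, adjusted p = 0.938 by edgeR), with a 95% interval of -0.57 to 0.84. The 5p count was 1.81, 3.71 and 3.46 times the 3p count in SS 12, 13 and 14, and 5.12, 7.58 and 4.48 times in MS 3, 4 and 23. These ratios were higher in every MS library than in any SS library, as were those of 8.18% of the 220 hairpins with both arms measured. The change in the log2 ratio of the arms was 0.97 (SE 0.50, unadjusted p = 0.0797, adjusted p = 0.585 over 220 hairpins by limma), so it was not called.

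The red blood cell list (miR-451a, miR-144-3p, miR-144-5p and miR-486a-5p, of which 3 of 4 were detected in every library) had a sum of 1496 to 2221 CPM in SS and 2560 to 3973 CPM in MS, so it was higher in the group with more miR-106b-5p. miR-451a made up nearly all of this sum. After TMM, 3 of the 4 markers had a log2 fold change above 0, 0.46 for miR-451a, 1.71 for miR-144-3p and 1.53 for miR-144-5p, while that of miR-486a-5p was -1.31. The endothelial list (miR-126a-3p and miR-126a-5p, both detected in every library) had 6580 to 7375 CPM in SS and 7669 to 9877 CPM in MS. miR-126a-3p made up most of this sum, and after TMM its log2 fold change was 0.09 (SE 0.20). That of miR-126a-5p was 0.81 (SE 0.29). On CPM the red blood cell and endothelial sums were higher in every MS library than in any SS library. This was also so for 18.7% of the 780 single miRNAs. All 6 neuron markers had a log2 fold change below 0 (-0.64 to -0.19), and 5 of the 6 choroid plexus and ependyma markers one above 0 (median of the 6, 1.09). Of the leukocyte and microglia list 4 of 6 and of the oligodendrocyte list 2 of 3 were above 0. No marker of the 6 lists was called in MS against SS, and the smallest adjusted p by edgeR was 0.336. The part of RNA from blood, vessels or other cells in the difference of miR-106b-5p was not tested, and in tissue RNA more cells of a type and more RNA per cell cannot be told apart.

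The other members moved less or with wider error in MS against SS. miR-19a-3p had the largest estimate, with 5, 2 and 6 counts in SS 12, 13 and 14 and 24, 14 and 4 in MS 3, 4 and 23. The groups overlapped, and its log2 fold change was 1.31 (SE 0.72, adjusted p = 0.598 by edgeR), which fell to 0.67 without MS 3. For miR-92a-3p it was -0.18 (SE 0.50) and for miR-25-3p 0.00 (SE 0.29), and for the rest it lay between 0.06 and 0.32. The 2 other members of miR-106b-25 thus had values of 0.11 (miR-93-5p, SE 0.27, adjusted p = 0.938) and 0.00 (miR-25-3p, adjusted p = 0.999), beside 1.18 for miR-106b-5p from the same transcript. The values of miR-92a-3p and miR-25-3p turned above 0 without TMM factors. The median over the 9 members was 0.22, beside -0.03 over all miRNAs. It depended on single libraries. Without SS 14, 4 members were above 0 and 5 below (median -0.01), and without MS 3, 5 were above and 4 below (median 0.01). Without SS 12 all 9 were above 0 (median 0.56).

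miR-32-5p, a miR-92-seed miRNA outside both clusters, had 4.01, 3.59 and 3.70 CPM in SS 12, 13 and 14 and 7.02, 10.2 and 6.54 CPM in MS 3, 4 and 23. Its groups did not overlap either, and its log2 fold change was 0.81 (SE 0.40, adjusted p = 0.551 by edgeR). The X-linked miR-363-3p had a log2 fold change of 1.14 (SE 0.82, adjusted p = 0.710), which rested on 34 counts in MS 3 against 2 to 10 in the other libraries of both groups. For miR-92b-3p the value was -0.21 (SE 0.51, adjusted p = 0.940).

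**Figure D3:**
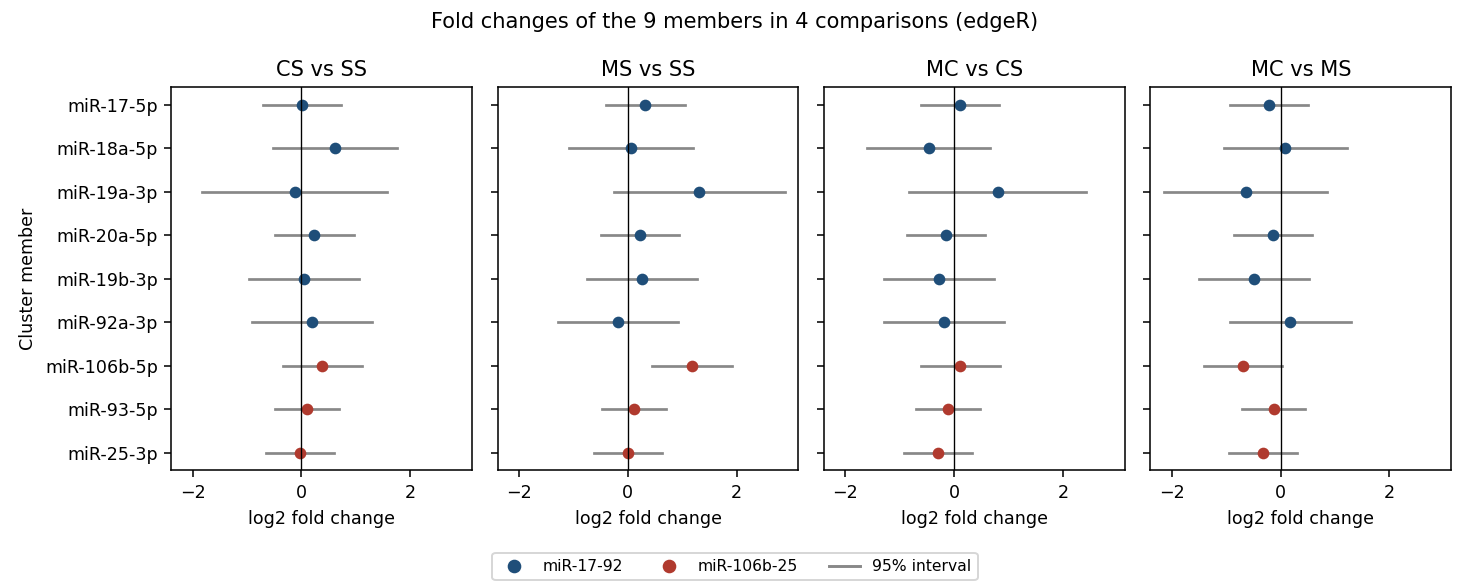
Fitted log2 fold changes (points, blue for miR-17-92 and red for miR-106b-25) with 95% intervals (lines) of the 9 members in 4 comparisons, from edgeR over 780 miRNAs. The interval of miR-106b-5p in MS against SS, 0.45 to 1.92, is the only 1 of the 36 drawn that leaves out 0, before adjustment for the number of tests.

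The remaining comparisons asked what methionine did under cocaine (MC against CS), what cocaine did under methionine (MC against MS), and whether the effect of 1 agent depended on the other. edgeR called none of the 9 members and none of the 780 miRNAs (0%) in any of them. At an unadjusted p under 0.05 there were 58, 65 and 34 miRNAs, which is 7.44%, 8.33% and 4.36%. DESeq2 called 0 of 773 in each. MC against CS gave 3 members above 0 and 6 below, with a median of -0.15 beside 0.08 over all miRNAs. With the library set as a covariate this turned to 7 above 0 and 2 below, with a median of 0.13, so no direction is read from it. MC against MS gave 2 above 0 (miR-18a-5p at 0.08 and miR-92a-3p at 0.18) and 7 below, with a median of -0.21 beside 0.05. Both of the values above 0 turned below 0 with the library set as a covariate. That of miR-92a-3p did so also under both other scalings and without MC 16, where it was -0.48, and that of miR-18a-5p without MC 17, MC 20 or MS 4. Without MS 3, in contrast, the value of miR-20a-5p turned above 0. This gave 3 members above 0 and 6 below, with a median of -0.01. These comparisons and those with SS share libraries, so their values are not independent of each other.

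miR-106b-5p had 16.9, 11.8 and 13.3 CPM in CS 8, 9 and 10 and 5.54, 23.5 and 15.9 CPM in MC 16, 17 and 20. MC 17 fell within the range of MS, MC 20 just below it, and MC 16 below every other library. Against MS its log2 fold change in MC was -0.69 (SE 0.33, adjusted p = 0.561 by edgeR), and against CS it was 0.11 (SE 0.33, adjusted p = 0.912). CS was above SS without overlap, as were 12.3% of the 780 miRNAs on CPM and 5% with TMM factors, with a log2 fold change of 0.39 (SE 0.33, adjusted p = 0.994 by edgeR). The interaction of cocaine and methionine was -1.08 (SE 0.47, unadjusted p = 0.0416, adjusted p = 0.804 by edgeR), so it was not called. All 9 members had an interaction estimate below 0, from -0.01 for miR-92a-3p to -1.08, with a median of -0.38 beside 0.06 over all miRNAs. Of all 780 miRNAs, 54.1% had an interaction estimate above 0. With the library set as a covariate, the estimates of miR-17-5p and miR-92a-3p turned above 0, and DESeq2 gave 0.04 for miR-92a-3p. The median of the 9 was -0.08 without MS 3, -0.16 without SS 14 and -0.73 without SS 12. The shared 12 libraries make the 9 member values dependent on each other.

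MC 16 carried much of the spread in the MC group. It had the lowest CPM of the 12 libraries for 6 members (miR-18a-5p, miR-19a-3p, miR-20a-5p, miR-19b-3p, miR-106b-5p and miR-25-3p). Relative to the median of the other 11 libraries it was at 0.154 for miR-18a-5p, 0.164 for miR-19b-3p and 0.347 for miR-106b-5p. For miR-93-5p it was at 0.844 and for miR-92a-3p at 1.35. The share of all 780 miRNAs with their lowest CPM in MC 16 was not counted, so the 6 are not read as particular to the clusters. The values above are CPM without scaling, and the TMM factor of MC 16, 0.675, was the lowest of the 12 libraries. After TMM, its log2 deviation from the median library was -0.33 for miR-20a-5p, -0.23 for miR-25-3p and 0.30 for miR-93-5p. For miR-18a-5p, miR-19b-3p and miR-106b-5p it was -1.80, -1.96 and -0.70. The members of 1 cluster thus parted widely in this library, and the ratio of miR-92a-3p to miR-19b-3p was 49.1, against 3.90 to 10.4 in the other 11.

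In MC 16 the deviation of a miRNA varied with its base composition. miR-92a-3p holds 57.1% G and C and miR-93-5p 52.2%, while miR-19b-3p and miR-20a-5p hold 39.1% and miR-19a-3p 34.8%. Between them lie miR-25-3p (50.0%), miR-17-5p (47.8%), miR-18a-5p (43.5%) and miR-106b-5p (42.9%). The members followed this order only loosely. At the same 39.1%, miR-19b-3p deviated by -1.96 and miR-20a-5p by -0.33. miR-18a-5p deviated by -1.80, further than miR-19a-3p (-1.02). Over the 636 of 746 tested mature miRNAs with a RefSeq sequence (85.3%), the correlation of G and C content with the log2 deviation of MC 16 from the median library was r = 0.568, across miRNAs that are not independent of each other. In the other 11 libraries r was between -0.252 and 0.083. In MC 16 the 100 miRNAs under 40% G and C had a median deviation of -0.997 and the 202 with at least 55% a median of 0.983, both on the log2 scale after TMM. On CPM without TMM factors, the endothelial sum (2972 CPM), the red blood cell sum (387 CPM) and the neuron sum (104800 CPM) were lowest in MC 16. So was the choroid plexus and ependyma sum (67.6 CPM). The oligodendrocyte sum was lowest in SS 14 and the leukocyte and microglia sum in CS 8. The TMM factor of MC 16, 0.675, was not applied to these sums. The part of base composition in the values of MC was not tested.

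**Figure D4:**
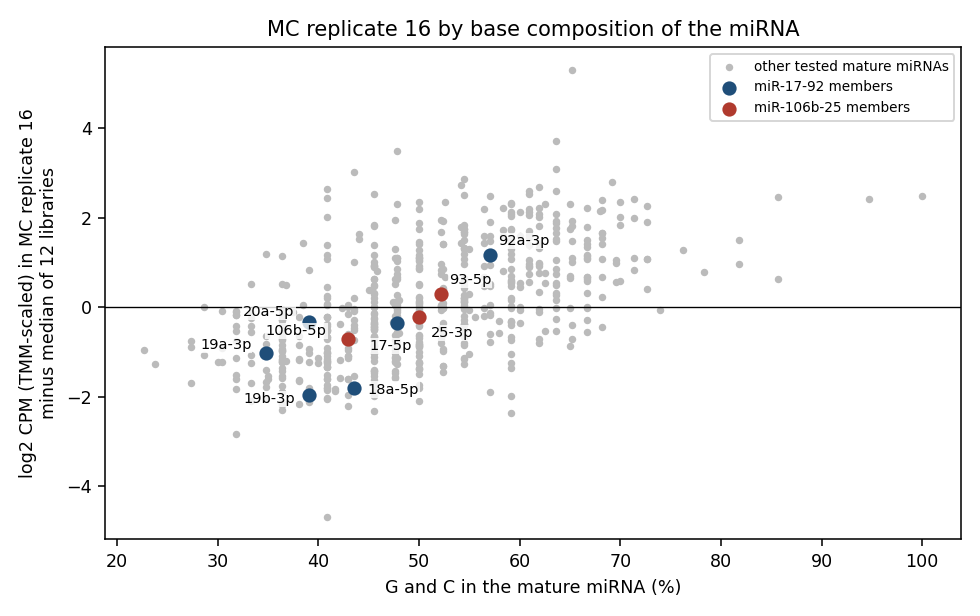
Share of G and C in each of 636 mature miRNAs (x axis, %) against its log2 CPM after TMM in MC replicate 16 minus its median over the 12 libraries (y axis), with the members in blue (miR-17-92) and red (miR-106b-25). Among the members miR-19b-3p (39.1%) is lowest at -1.96 and miR-92a-3p (57.1%) highest at 1.18.

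The balance of the arms was measured for each hairpin as the member's counts over those of its other arm, summed over the 12 libraries. It was lowest for miR-17 (3.68) and miR-106b (3.73), where the other arm made up a fair share, and 11.6 for miR-18a. The ratio was 24.4 for miR-25, 55.6 for miR-20a, 197 for miR-93, 798 for miR-19b and 3680 for miR-92a. For miR-19b and miR-92a the member's counts can come from 2 hairpin copies, while the other arm is that of the miR-17-92 copy. Their ratios are thus not the balance of a single hairpin. The other arms were thus rare for most hairpins, with 22 counts in all 12 libraries for miR-92a-1-5p and 14 for miR-19b-1-5p, and miR-19a-5p was not listed. The arm named as a member had the higher count in every library in all 8 pairs with both arms listed.

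Of the 220 hairpins whose arms could both be tested, none was called in any of the 5 comparisons by limma. At an unadjusted p under 0.05 it gave 10, 25, 12, 8 and 9 hairpins in CS against SS, MS against SS, MC against CS, MC against MS and the interaction. The 6 member hairpins that could be tested (miR-17, miR-18a, miR-20a, miR-106b, miR-93 and miR-25) had none, and the lowest unadjusted p was 0.0693, for miR-106b in MC against MS (-1.01, SE 0.50). For miR-25 the ratio was 4.32 in MC 16 and 18.3 to 90.6 in the other libraries. In MC 16 miR-25-5p, the minor arm, had 54 counts, more than in any other library, while miR-25-3p had 235, fewer than in any other.

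Reads of precursor families, which the files list apart from the mature miRNAs, gave a readout that the list of members did not use. The mir-92 family was 454 to 465 CPM in library set A, 159 to 290 CPM in set B and 110 to 202 CPM in set C. Mature miR-92a-3p had a like order, with 1039 to 1276 CPM in set A, 423 to 880 CPM in set B and 406 to 853 CPM in set C. Sets B and C overlapped for both, and set A lay above them. A family row may hold reads of hairpins other than those of the members, and their shares are not known. The mir-92 family is thus not the precursor of miR-92a-3p alone. The mir-17 family was lower in set A (0.729 to 2.48 CPM) and set C (0.244 to 1.00 CPM) than in set B (5.58 to 13.9 CPM). The mir-19 family was likewise highest in set B, with 16.6 to 40.4 CPM, against 10.4 to 13.1 CPM in set A and 0.772 to 3.39 CPM in set C.

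For the mir-17 and mir-19 families set B thus did not overlap the other sets. The sets were made from other precursor families, and the share of those that parted by set was not counted. The split is therefore not read as particular to these families, and the same holds for the mir-92 family in set A. A comparison of groups is mixed with the sets, and within set B only MS and SS had more than 1 library. In that set the mir-19 family was 18.5 and 16.6 CPM in SS 13 and 14, and 40.39, 33.96 and 23.20 CPM in MS 3, 4 and 23. The mir-17 family was 5.58 and 5.96 CPM in SS 13 and 14 and 13.9, 13.2 and 7.32 CPM in MS 3, 4 and 23. Both were higher in every MS library than in either SS library of the set, which was so for 37 of 125 precursor families, 29.6%, and the difference was not tested. The mir-25 row reached at most 2.43 CPM.

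**Figure D5:**
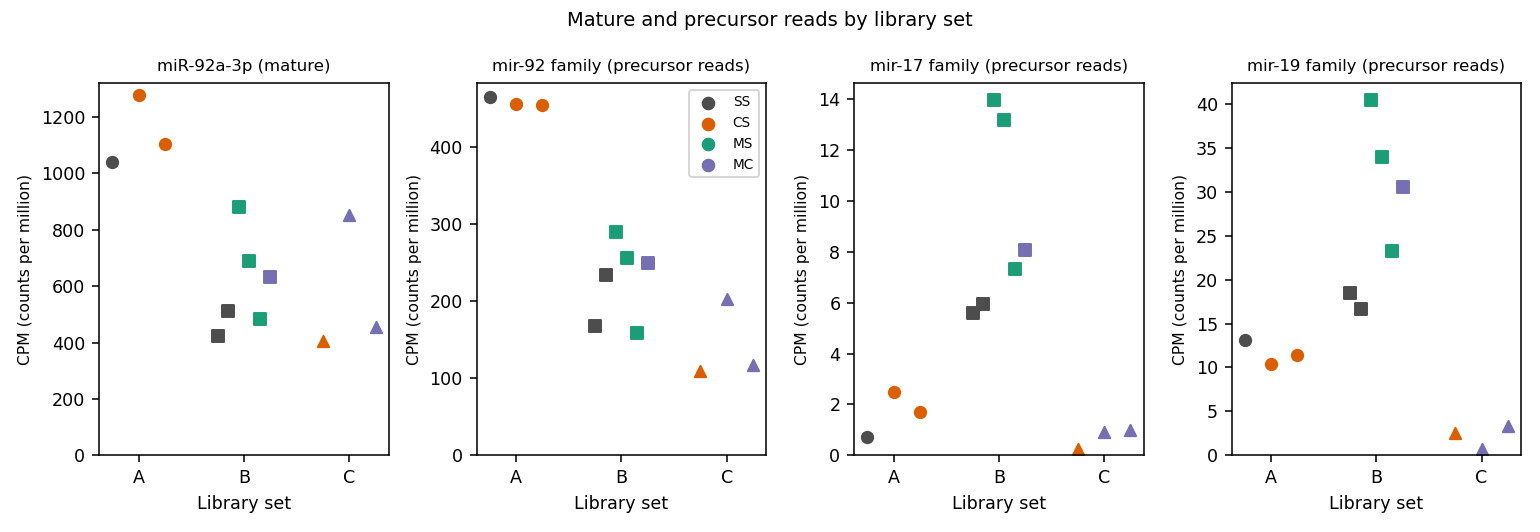
CPM of mature miR-92a-3p and of precursor reads of the mir-92, mir-17 and mir-19 families by library set (A circles, B squares, C triangles), 1 point per library coloured by group. The mir-92 family lies at 454 to 465 CPM in set A and at most 290.0 CPM elsewhere, and the mir-17 and mir-19 families are highest in set B.

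The members of a cluster were also compared across the 12 libraries. On log2 CPM after TMM, the correlation with the mean of miR-17-92 was 0.913 for miR-20a-5p, 0.819 for miR-19b-3p, 0.797 for miR-17-5p, 0.790 for miR-18a-5p and 0.712 for miR-19a-3p. For miR-92a-3p it was 0.207. Without MC 16 it was 0.625 for miR-92a-3p, near the 0.632 of miR-19a-3p and the 0.685 of miR-18a-5p, and 0.829 to 0.941 for the other 3. Across clusters, miR-92a-3p correlated at 0.738 with miR-93-5p and 0.636 with miR-25-3p, which became 0.694 and 0.919 without MC 16. Of the miR-17-92 members, miR-19a-3p had the highest correlation with miR-106b-5p (0.756, and 0.701 without MC 16). Within miR-106b-25 the correlation with the mean was 0.742 for miR-106b-5p, 0.615 for miR-25-3p and 0.526 for miR-93-5p. Without MC 16 the order changed, to 0.725 for miR-93-5p, 0.703 for miR-106b-5p and 0.574 for miR-25-3p. The points share depth, library set and base composition, and each member is part of its own mean.

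Outside the clusters and their other arms, the miRNAs most like the mean of miR-17-92 by Pearson's r over 12 libraries were miR-193a-3p (0.880), miR-34c-5p (0.859) and miR-1298-5p (0.806). miR-34c-5p is also on the list of choroid plexus and ependyma markers. For miR-106b-25 they were miR-30a-3p (0.833), miR-378a-5p (0.809) and miR-30e-3p (0.804). Without MC 16 these values were 0.825, 0.836 and 0.842 for the first cluster and 0.836, 0.832 and 0.785 for the second.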

How the data were processed

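Small RNA of 18 to 30 nt was sequenced (BGISEQ-500, single-end, 50 bases). Per the study's methods, the authors removed low-quality, adapter-containing and under-16-nt reads and mapped with AASRA; the submitters' processing notes name Bowtie and mm10. The authors deposited a raw count per small RNA and a TPM (count over library total, per 1000000), which equals the CPM used here. No column of another sample was used.

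Members and lists were chosen with earlier results of these data known. Named were the 9 members, their other arms, the miR-106a-363 cluster, miRNAs of the same seed, precursor rows, and for each cluster the 3 miRNAs of highest r. Precursor rows carry Rfam family names.

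Counts were tested with edgeR 4.0.16 (R 4.3.3; quasi-likelihood, TMM over miRNAs, 1 coefficient per group, 12 libraries, 8 residual degrees of freedom, at least 5 counts in 3 libraries) with Benjamini-Hochberg adjustment and a call at 0.05. DEGseq, the authors' tool, was not used because it takes no replicate error. DESeq2 1.42.0 was an alternative. Arm ratios (pseudocount 0.5) were tested with limma 3.58.1. Alternatives varied scaling, filter, tool, library set and each library. On simulated counts for CS against SS (751 and 756 miRNAs tested), edgeR recovered 0% of genes changed by 1 on the log2 scale and 60.7% of those changed by 2. All p-values are two-sided, and with pooled RNA they rest on the spread between pools, not between animals.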

Additional observations from a re-analysis of the deposited data

How the results depend on the processing

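The fold changes of 9 members in 5 comparisons were recomputed under the alternatives, giving 900 values, of which 896 moved by less than the member's SD within groups. The 4 others were miR-92a-3p in MC against CS with the library set as a covariate (0.69), miR-92a-3p in MC against MS (-0.48) and in the interaction (-0.70) without MC 16, and miR-93-5p in the interaction without TMM factors (-0.68). The sign of 83 values changed, 15 of them with the library set as a covariate, and none of these was called. In MS against SS, the number of miRNAs called was 0 by edgeR and became 13 with DESeq2, 3 in a fit of only the 6 libraries compared, and 8 in only the 6 libraries of set B. Leaving out 1 library at a time it ran from 0 to 7, with 7 without MC 16, and the members called ran from 0 to 1. DESeq2 also called 1 member, miR-106b-5p. The cause of these differences was not tested. The other 279 of 285 recomputed counts of calls were the same as reported, at 0. No paired analysis was possible because the groups share no replicate number in the labels. Depth limits miR-19a-3p most (1 to 24 counts), and with 3 pools per group a change of 1 on the log2 scale was not recovered in simulated counts for CS against SS.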

Other observations

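The marker lists of other cell types were measured in the same libraries. The oligodendrocyte sum (miR-219a-2-3p, miR-219a-5p and miR-338-3p) was 392 to 1733 CPM and the leukocyte and microglia sum (6 markers, led by miR-150-5p) 1042 to 2747 CPM. The choroid plexus and ependyma sum (6 markers) was 124 to 143 CPM in SS, 152 to 826 CPM in CS, 130 to 680 CPM in MS and 67.6 to 268 CPM in MC. In CS against SS all 6 markers of the last list had a log2 fold change above 0 (0.21 to 1.88, median 1.03), and none was called (adjusted p = 0.994 by edgeR). Of the 27 markers in the 6 lists, none was called in any of the 5 comparisons by edgeR, and none is a member of the clusters.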
